A study of Mus musculus with 16 samples.

Results

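The 5 genes described here set how much active thyroid hormone reaches the nuclei of a tissue and how it is read there: the deiodinases Dio2 and Dio3, the nuclear receptors Thra and Thrb, and the transporter Slc16a10. They were found by gene symbol among the 55487 gene rows of a read count table from mouse heart, and all 5 were present. Dio2 was chosen by its values, since of the 5 it had the largest rise in knockout over control hearts after pressure overload, and the others were taken as parts of the same pathway. RNA came from the apex of 16 mouse hearts, 4 in each of 4 groups, and each library is 1 animal. Ctrl animals are labelled wild type by genotype, and knockout (KO) animals lacked Cardinal (Gm12295), a long noncoding RNA of the heart, which had been deleted with CRISPR/Cas9. Each genotype was given either transverse aortic constriction (TAC), a ligature that makes the left ventricle pump against a higher pressure, or a sham operation without the constriction, and hearts were taken 4 weeks later. The study used male mice, and the labels name neither strain nor age. The groups are named by genotype and operation, from Ctrl sham to KO TAC.

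The thyroid gland releases mostly thyroxine (T4), a prohormone. In the tissue, type 2 deiodinase, the product of Dio2, removes an outer-ring iodine and makes the active hormone T3, whereas type 3 deiodinase, the product of Dio3, removes an inner-ring iodine and inactivates both T4 and T3. T3 binds the receptors encoded by Thra and Thrb, which sit on DNA with retinoid X receptors and switch target genes such as those for the myosin heavy chains and the sarcoplasmic reticulum calcium pump. Slc16a10 encodes MCT10, which carries T3, T4 and aromatic amino acids across the plasma membrane.

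Both deiodinases are selenoproteins, and their catalytic residue is a selenocysteine read from a UGA codon that would otherwise end translation. The coding sequence around that codon is shown for both because it is the feature that sets them apart from most transcripts counted here. In the GENCODE M21 transcripts the codon was number 130 in Dio2 (chr12:90729823-90729825, minus strand, GRCm38) and number 170 in Dio3 (chr12:110279739-110279741, plus strand), and the Dio2 transcript carried a further annotated selenocysteine codon at position 263 of the 266 codons before its stop. The codon, TGA in the DNA, is in capitals with 30 coding bases on each side. Of the 63 bases of the windows, 41 were identical.
Dio2: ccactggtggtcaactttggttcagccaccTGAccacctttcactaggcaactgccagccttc
Dio3: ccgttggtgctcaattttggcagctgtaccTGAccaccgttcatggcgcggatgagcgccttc

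The Dio2 promoter is shown because Dio2 had the largest change of the 5 genes. The window runs from 250 bases before to 50 after the RefSeq start site (chr12:90738989-90739288, minus strand, GRCm38.p6), which lies 600 bases upstream of the Dio2 gene as GENCODE draws it. Capitals mark the matches to the motifs searched on both strands.
Dio2 promoter: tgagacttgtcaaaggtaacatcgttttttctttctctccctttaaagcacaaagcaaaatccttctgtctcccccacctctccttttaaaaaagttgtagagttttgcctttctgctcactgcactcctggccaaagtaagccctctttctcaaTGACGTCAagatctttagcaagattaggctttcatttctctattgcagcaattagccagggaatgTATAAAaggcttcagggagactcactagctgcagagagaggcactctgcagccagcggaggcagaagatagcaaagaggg
It held the palindrome TGACGTCA, the full cAMP response element, starting at -95, a match present in 588 of the 32851 mouse promoters of the same length (1.79%). It also held TATAAA at -30, a match found in 13.6% of all promoters, and Dio3 held TATAAA at -31. The hexamer AGGTCA, to which thyroid hormone receptors bind, present in 16.3% of all promoters, was not in the Dio2 window. Among the 4 members with a RefSeq promoter, only Thrb had AGGTCA, at -184 of its promoter at chr14:17660710-17661009. Its other promoter, at chr14:17981394-17981693, had no AGGTCA but held TATAAA at -167. The direct repeat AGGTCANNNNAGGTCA was in 5 of all promoters (0.0152%) and in none of the 4 members.

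Library totals ranged from 53169437 to 79404714 counts. Levels are given as CPM, the counts of a gene relative to the scaled total of its library, and a gene was called at a Benjamini-Hochberg adjusted p under 0.05 in edgeR's quasi-likelihood test over all 18275 genes that passed a filter on low counts. All 5 members passed that filter. Cardinal itself was 3.24 to 3.86 CPM in Ctrl sham, 0.297 to 0.553 CPM in KO sham and 2.69 to 8.02 CPM in Ctrl TAC. In KO TAC it was 0.276 to 0.371 CPM in 3 libraries, but 377 counts were found in the library labelled KO TAC 4, where its level of 4.55 CPM (exact 95% Poisson limits 4.10 and 5.03, counting error only) was as high as in Ctrl hearts and went against the label. The TAC effects of the members and the marker sums of KO TAC are given with and without this library. The 8 cardiomyocyte markers (Tnnt2, Tnni3, Actn2, Ryr2, Myl2, Myl3, Pln and Myh6) summed to 35791 to 56208 CPM over the 16 libraries. The 8 thyroid gland markers summed to 0.989 to 2.39 CPM.

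Dio2 (chr12:90724552-90738438, minus strand) rose after TAC in both genotypes and was highest in KO TAC. In Ctrl sham its level was 0.696, 0.844, 1.40 and 0.919 CPM, and in KO sham 0.869, 1.19, 1.10 and 0.545 CPM. In Ctrl TAC it was 6.28, 3.72, 3.34 and 5.85 CPM, and in KO TAC 10.1, 12.9, 24.9 and 11.7 CPM. The sham groups overlapped, and every TAC library lay above every sham library. Every KO TAC library lay above every Ctrl TAC library, which is the difference by which Dio2 was chosen. The share of all genes tested whose groups separate in these ways was not counted, here or for the genes below. KO TAC 3 was the highest of all, at 1622 counts.

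**Figure D1:**
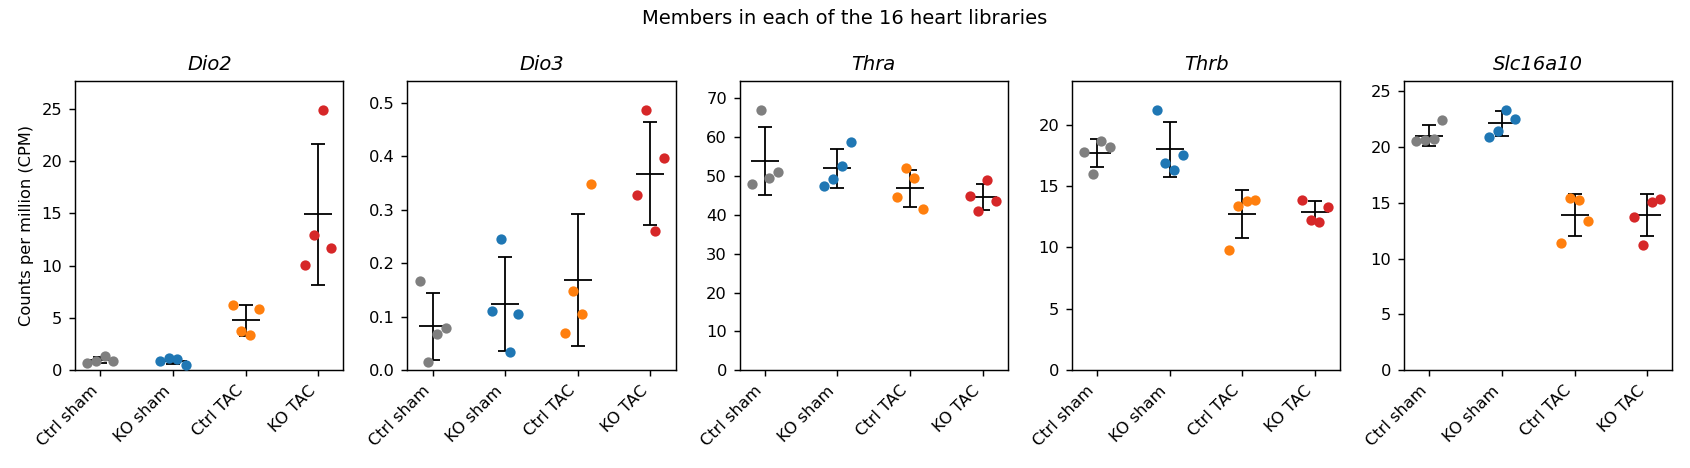
Level of each member in each library (points, CPM, linear axes from 0), with the group mean and SD (black, n = 4). Dio2 was 3.34 to 6.28 CPM in Ctrl TAC and 10.1 to 24.9 CPM in KO TAC, whereas Thrb and Slc16a10 were lower in the TAC libraries of both genotypes than in any sham library. The share of all genes tested that separate in this way was not counted.

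The TAC effect on Dio2, averaged over both genotypes, was a log2 fold change of 3.16 ± 0.25 (SE), an 8.95-fold rise (edgeR adjusted p = 1.32e-07). This estimate is the mean of the effects in Ctrl and KO. It is orthogonal to the KO TAC minus Ctrl TAC difference by which Dio2 was selected only if both TAC groups have equal spread, which was not tested. Because it uses the same libraries, its p-value and rank are not independent support for that choice. In all, 41.5% of the genes tested were called for the averaged TAC effect, 21.3% as higher and 20.2% as lower after TAC, and the Dio2 rise was number 39 of 18275 from the top. Without the library labelled KO TAC 4 the averaged effect was 3.21, and with any single library removed it was 2.98 to 3.28, called each time.

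Within genotypes the Dio2 values are a description, without a test, because the groups include those that chose it. The mean was 0.965 ± 0.306 CPM (SD, n = 4) in Ctrl sham and 4.80 ± 1.48 in Ctrl TAC, a log2 difference of 2.32. In KO hearts it went from 0.926 ± 0.288 CPM in sham to 14.9 ± 6.75 in TAC, a log2 difference of 4.00, or 4.10 without the library labelled KO TAC 4. KO TAC was 3.11-fold above Ctrl TAC, a log2 difference of 1.64, in a comparison in which 2.68% of all genes tested were called. Leaving out the library labelled KO TAC 4 gave 1.74, with a KO TAC mean of 16 ± 7.86 CPM (n = 3), and leaving out each library in turn gave 1.27 to 1.79. Animal numbers starting with 25 were held by Ctrl TAC 2, 3 and 4 and by KO TAC 4 alone. Among those 4 libraries Dio2 was 3.72, 3.34 and 5.85 CPM in Ctrl and 11.7 CPM in KO, and among the other TAC libraries 6.28 CPM in Ctrl and 10.1, 12.9 and 24.9 CPM in KO. With a term for these numbers in the model the log2 difference was 1.40.

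Dio3 (chr12:110279068-110281097, plus strand, a gene of 1 exon) was near the lower limit of what these libraries count. It had 1 to 12 counts per library in Ctrl sham, 2 to 14 in KO sham, 4 to 25 in Ctrl TAC and 17 to 33 in KO TAC. The levels were 0.167, 0.0156, 0.068 and 0.078 CPM in Ctrl sham and 0.111, 0.245, 0.0344 and 0.105 CPM in KO sham. They were 0.0704, 0.149, 0.106 and 0.348 CPM in Ctrl TAC and 0.327, 0.487, 0.261 and 0.398 CPM in KO TAC. KO TAC lay above KO sham without overlap, and the 2 Ctrl groups overlapped. Dio3 had 10 or more counts in all 4 KO TAC libraries and in 4 of the other 12, so it passed the low-count filter largely through the group in which it was highest.

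Its test values are therefore given without reading a call from them. The averaged TAC effect of Dio3 was a log2 fold change of 1.29 ± 0.41 (edgeR adjusted p = 0.0170), or 2.44-fold. It was 1.30 (adjusted p = 0.0254) with no filter on low counts, 1.27 (adjusted p = 0.0297) without the library labelled KO TAC 4 and 0.97 (adjusted p = 0.0702) without Ctrl TAC 4, its highest Ctrl library. With a model term for animal numbers starting with 25 it was 0.95 (adjusted p = 0.198), and with one for numbers starting with 33 it was 1.34 (adjusted p = 0.0825). The effect was 1.02 ± 0.61 in Ctrl (edgeR adjusted p = 0.271) and 1.56 ± 0.55 in KO (adjusted p = 0.0347). The KO value was above the threshold with no filter on low counts (adjusted p = 0.0568), with the 25 term (1.40, adjusted p = 0.0673), with the 33 term (1.64, adjusted p = 0.168) and when any of KO sham 1, 3 and 4 or KO TAC 1, 2 and 4 was left out. Over the 16 fits that left out a library it was 1.26 to 2.11, with adjusted p of up to 0.0985. KO TAC minus Ctrl TAC was 1.09 on the log2 scale, or 1.05 without the library labelled KO TAC 4, given without a test, and the 2 groups overlapped. Counting each gene per kilobase of its exons, Dio2 exceeded Dio3 in every group, at 0.166 against 0.0405 CPM per kb in Ctrl sham and 2.56 against 0.181 CPM per kb in KO TAC.

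Both receptor transcripts fell in the averaged TAC effect, although the call of Thra depended on single libraries and on a model term. Thra (chr11:98740638-98769006, plus strand), which encodes the main T3 receptor of heart muscle along with a splice form that does not bind T3, was 47.9, 67.0, 49.6 and 51.0 CPM in Ctrl sham and 47.3, 49.3, 52.7 and 58.8 CPM in KO sham. After TAC it was 44.5, 52.1, 49.4 and 41.5 CPM in Ctrl and 44.9, 40.9, 48.9 and 43.6 CPM in KO. Sham and TAC libraries overlapped in both genotypes. The averaged effect was -0.21 ± 0.07 on the log2 scale (edgeR adjusted p = 0.0247), a change of -13.7%. The call was lost without KO sham 4 (-0.18, adjusted p = 0.0529), without Ctrl TAC 4 (-0.19, adjusted p = 0.0539) and without KO TAC 2 (-0.19, adjusted p = 0.0539). It was also lost with the model term for animal numbers starting with 25 (-0.23, adjusted p = 0.0850), and leaving out the KO TAC 4 library gave -0.21 (adjusted p = 0.0440). Thra did not pass within Ctrl (-0.20 ± 0.10, adjusted p = 0.184). Within KO it did not pass with all 16 libraries (-0.22 ± 0.10, adjusted p = 0.102), but passed at the same -0.22 without Ctrl sham 2 (adjusted p = 0.0336) and in a fit of only the 8 KO libraries (adjusted p = 0.0292). With the KO TAC 4 library left out the KO effect was -0.21 (adjusted p = 0.177). Of the Thra exon bases, 263 (5.7%) are shared with Nr1d1, which lies on the opposite strand and encodes the clock repressor REV-ERBα. Whether counting used the strand is not given in the sources used here, so reads from those bases cannot be assigned to one gene or the other. Nr1d1 had an averaged TAC effect of 0.37 ± 0.14 (edgeR adjusted p = 0.0529), and the highest Thra library, Ctrl sham 2, was also the highest for Nr1d1, at 85.4 CPM. The part of this overlap in the Thra values was not tested.

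Thrb (chr14:17660261-18038090, plus strand), the other T3 receptor gene, was 17.8, 16, 18.7 and 18.2 CPM in Ctrl sham and 21.2, 16.9, 16.3 and 17.5 CPM in KO sham. It was 9.80, 13.4, 13.8 and 13.9 CPM in Ctrl TAC and 13.9, 12.2, 12.1 and 13.3 CPM in KO TAC. Every TAC library lay below every sham library, and the TAC groups of the 2 genotypes overlapped. The averaged effect was -0.48 ± 0.07 (edgeR adjusted p = 3.64e-05), a change of -28.2%, and it stood in all 16 fits that left out a library. The effect was -0.47 ± 0.10 in Ctrl (edgeR adjusted p = 0.00302) and -0.48 ± 0.10 in KO (adjusted p = 0.00127). Leaving out the library labelled KO TAC 4 gave -0.49 for the averaged effect (adjusted p = 1.0e-04) and -0.50 in KO (adjusted p = 0.00326). KO TAC minus Ctrl TAC was 0.01 on the log2 scale, without a test.

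The balance of the receptor transcripts does not depend on library size and was compared as the log2 ratio of Thrb to Thra counts. It was -1.60 ± 0.31 (SD, n = 4) in Ctrl sham, -1.54 ± 0.27 in KO sham, -1.89 ± 0.25 in Ctrl TAC and -1.79 ± 0.15 in KO TAC. As shares, not corrected for length, Thrb counts were 33.6%, 35%, 27.3% and 29.0% of Thra counts. The TAC libraries were lower by -0.27 on average (exact two-sided permutation of operations within genotypes, p = 0.0437 over 4900 relabellings, of which the smallest possible p is 0.000408). This call rested on single libraries. It was lost in 10 of the 16 tests that left out 1 library (Ctrl sham 1, 3 or 4, KO sham 1 or 2, Ctrl TAC 1, 2 or 3, or KO TAC 2 or 3), where p was 0.0522 to 0.0918 and the difference -0.21 to -0.28, and the lowest p over all 16 was 0.00735. Without the library labelled KO TAC 4 the difference was -0.29 (exact permutation p = 0.0482).

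**Figure D2:**
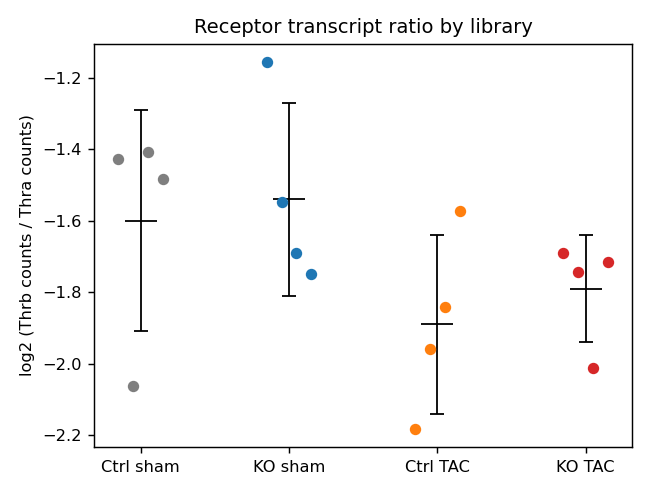
Log2 ratio of Thrb to Thra counts in each library (points), with group mean and SD (black, n = 4). The ratio was lower on average in the TAC groups (-1.89 and -1.79) than in the sham groups (-1.60 and -1.54), and the libraries of sham and TAC groups overlapped.

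Slc16a10 (chr10:40033532-40142258, minus strand) fell after TAC, to a mean of 13.9 CPM in each genotype (SD 1.85 in Ctrl and 1.89 in KO, n = 4). It was 20.5, 20.6, 20.7 and 22.4 CPM in Ctrl sham and 20.9, 21.4, 23.3 and 22.5 CPM in KO sham. It was 11.4, 15.4, 15.2 and 13.4 CPM in Ctrl TAC and 13.7, 11.2, 15.1 and 15.3 CPM in KO TAC. No TAC library reached the lowest sham library. The averaged effect was -0.63 ± 0.07 (edgeR adjusted p = 6.03e-07), a change of -35.6%. It was -0.60 ± 0.10 in Ctrl (edgeR adjusted p = 0.000210) and -0.67 ± 0.10 in KO (adjusted p = 2.83e-05), and it was called in all 16 fits that left out a library for each of these effects. Leaving out the library labelled KO TAC 4, the averaged effect was -0.66 (adjusted p = 1.08e-06) and the effect in KO -0.72 (adjusted p = 4.92e-05). KO TAC minus Ctrl TAC was 0.00 on the log2 scale, without a test, and for Thra it was -0.07.

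**Figure D3:**
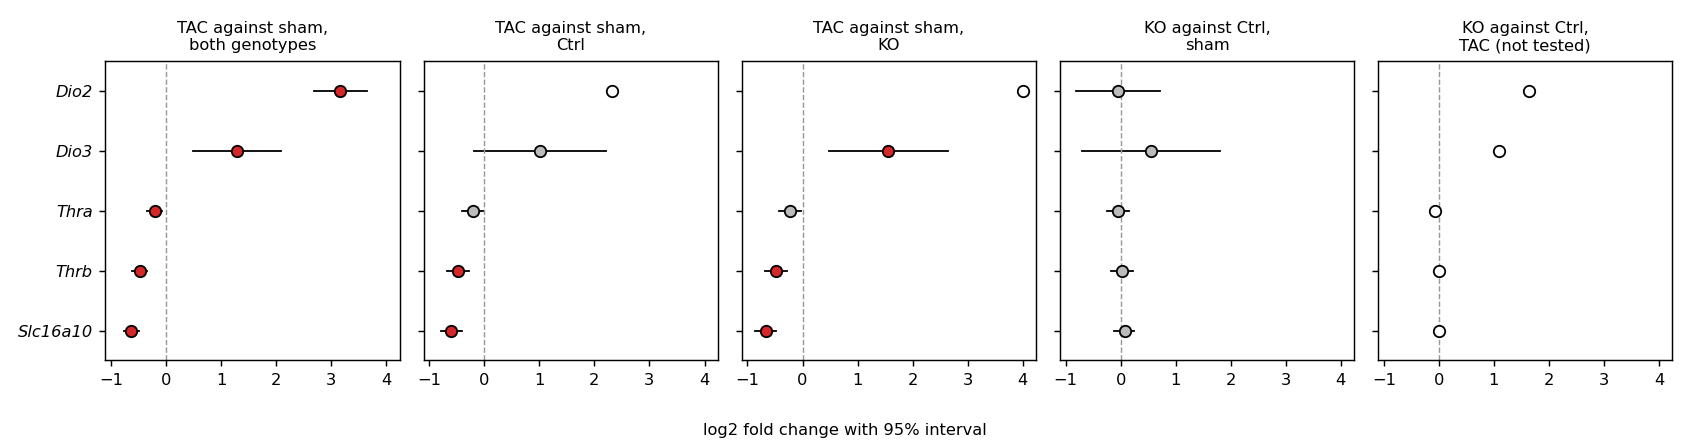
Log2 fold change of each member (point) in each comparison, with the 95% interval (line, 1.96 SE) of each tested value, where red marks an adjusted p under 0.05, grey a tested value that did not pass and white a value given without a test. Averaged over genotypes Dio2 and Dio3 lay above 0 (3.16 and 1.29) and Thra, Thrb and Slc16a10 below 0 (-0.21, -0.48 and -0.63). Dio3 is coloured by the same rule, although no call is read from its values.

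Of Thra, Thrb and Slc16a10, 2 passed within Ctrl, where 20.0% of all genes tested were called, and 2 within KO, where 34.3% were called, namely Thrb and Slc16a10 each time. The genotype by operation differences were given without a test because they contain the contrast that chose Dio2. They were 1.69 for Dio2, 0.54 for Dio3, -0.02 for Thra, -0.01 for Thrb and -0.07 for Slc16a10 on the log2 scale, with SE of 0.49, 0.84, 0.14, 0.15 and 0.13.

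In unloaded hearts no member passed the test between the genotypes. KO minus Ctrl in sham was -0.05 for Dio2 (95% interval -0.82 to 0.72), 0.55 for Dio3 (-0.71 to 1.80), -0.05 for Thra (-0.25 to 0.15), 0.02 for Thrb (-0.18 to 0.22) and 0.07 for Slc16a10 (-0.12 to 0.25) on the log2 scale, each with an edgeR adjusted p of 1.00. Of all genes tested, 0% were called in this comparison by edgeR, with 479 at an unadjusted p under 0.05 and 3 called by DESeq2. The deleted gene Cardinal was thus not called by edgeR either, at 3.24 to 3.86 CPM in Ctrl sham and 0.297 to 0.553 CPM in KO sham. A gene that was not called here can therefore still differ between the genotypes. The interval of Dio3, the gene with the fewest counts, was the widest of the 5.

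Per kilobase of exons, Thra was the most abundant member in every group, at 11.7 ± 1.91 CPM per kb (SD, n = 4) in Ctrl sham, 11.3 ± 1.09 in KO sham, 10.2 ± 1.03 in Ctrl TAC and 9.66 ± 0.718 in KO TAC. Slc16a10 and Thrb followed in both sham groups, at 2.86 ± 0.124 and 2.39 ± 0.158 CPM per kb in Ctrl sham. In Ctrl TAC they were 1.89 ± 0.251 and 1.72 ± 0.265, a gap smaller than their spread. Dio2 stood below these and above Dio3 in Ctrl sham, KO sham and Ctrl TAC, at 0.166, 0.159 and 0.825 CPM per kb. In KO TAC its mean was second, at 2.56 ± 1.16, against 1.88 ± 0.256 for Slc16a10 and 1.74 ± 0.116 for Thrb, which again lay within the spread of Dio2. Dio3 was last in all 4 groups.

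The wider pathway was described by 7 gene lists. None of their genes was called between the genotypes in sham, a comparison that did not call the deleted Cardinal either. Of 9 genes for transport and binding of thyroid hormone, 3 rose and 1 fell in the averaged TAC effect, with a median log2 fold change of 0.28 against 0.00 for all genes tested, of which 21.3% rose and 20.2% fell. The risers were Crym, a cytosolic T3-binding protein, at 0.94 ± 0.26 (edgeR adjusted p = 0.00705), Slc7a5, the light chain of the LAT1 amino acid transporter that also carries T3, at 0.70 ± 0.09 (adjusted p = 4.31e-06), and its heavy chain Slc3a2 at 0.29 ± 0.05 (adjusted p = 0.000199). Slc16a10 was the gene that fell. Crym was scarce, with group means of 0.120 to 0.249 CPM.

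Of the 7 deiodinases and genes for deiodinase turnover, 6 could be tested. They include Dio2, chosen by its values, and Dio3, from which no call is read. Of the 6, 4 passed as higher and 1 as lower (median 0.20), beside 21.3% and 20.2% of all genes tested. Beside Dio2 and Dio3 these were Wsb1, part of a ubiquitin ligase for type 2 deiodinase, at 0.20 ± 0.07 (edgeR adjusted p = 0.0321), Usp20, a deubiquitinase of the same protein, at 0.19 ± 0.05 (adjusted p = 0.00280), and March6, the gene of another of its ligases, at -0.25 ± 0.04 (adjusted p = 1.90e-05). Dio1, the third deiodinase, had at most 9 counts in any library and was not tested. Of the 6 genes for inserting selenocysteine, Sephs2, which makes the selenium donor, rose (0.29 ± 0.05, adjusted p = 0.000242), the other 5 did not pass, and the median was -0.05.

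Of 19 receptors and cofactors, 9 fell and 0 rose (median -0.14), where 20.2% of all genes tested fell. After Thrb, the steepest falls among those called were in the retinoid X receptors that pair with T3 receptors: Rxra at -0.41 ± 0.05 (edgeR adjusted p = 3.50e-06) and Rxrg at -0.39 ± 0.05 (adjusted p = 2.24e-06). The corepressor Ncor1, named outside the rule for named genes after its values were seen, was at -0.10 ± 0.04 (adjusted p = 0.0921).

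Of 19 genes that T3 is known to induce, 18 could be tested, of which 10 fell and 2 rose (median -0.29), beside 20.2% and 21.3% of all genes tested. The steepest falls were in Ucp3, a mitochondrial carrier, at -1.27 ± 0.30 (edgeR adjusted p = 0.00448), Kcnd2, a potassium channel subunit of the transient outward current, at -0.84 ± 0.10 (adjusted p = 5.13e-06), and Atp2a2, the calcium pump SERCA2, at -0.65 ± 0.04 (adjusted p = 8.31e-10). The risers were Hr, a corepressor, at 0.67 ± 0.10 (adjusted p = 5.27e-05) and Atp1b1, a sodium pump subunit, at 0.21 ± 0.04 (adjusted p = 0.000292). Myh6, the fast myosin heavy chain, was named after its values were seen and was at -0.46 ± 0.06 (adjusted p = 2.88e-06). Of the 5 genes that T3 represses, Myh7, the slow myosin heavy chain, rose by 1.28 ± 0.15 (adjusted p = 8.02e-06), whereas Pln, the inhibitor of the calcium pump, and Adcy6, an adenylyl cyclase, were at -0.52 ± 0.05 (adjusted p = 2.36e-07) and -0.50 ± 0.05 (adjusted p = 1.23e-07), and the median was -0.01. AGGTCA was in the promoters of Ryr2, Hcn2 and Ucp3 among the 15 T3-induced genes with a RefSeq promoter, and in none of the 4 T3-repressed genes with one. Of all promoters, 16.3% held it, and a link between the motif and these lists was not tested.

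Dio3 lies at the end of the imprinted Dlk1-Dio3 domain on chromosome 12. Of the 6 genes of that domain that could be tested, 3 passed as higher and 0 as lower (median 0.38), beside 21.3% and 20.2% of all genes tested. They were Dio3 itself, with the limits given above, the maternally expressed noncoding RNA Meg3 at 0.41 ± 0.11 (edgeR adjusted p = 0.00936) and Rian at 0.36 ± 0.09 (adjusted p = 0.00373). Dio3os, the noncoding partner of Dio3, likewise named after its values were seen, was at 0.61 ± 0.31 (adjusted p = 0.134).

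**Figure D4:**
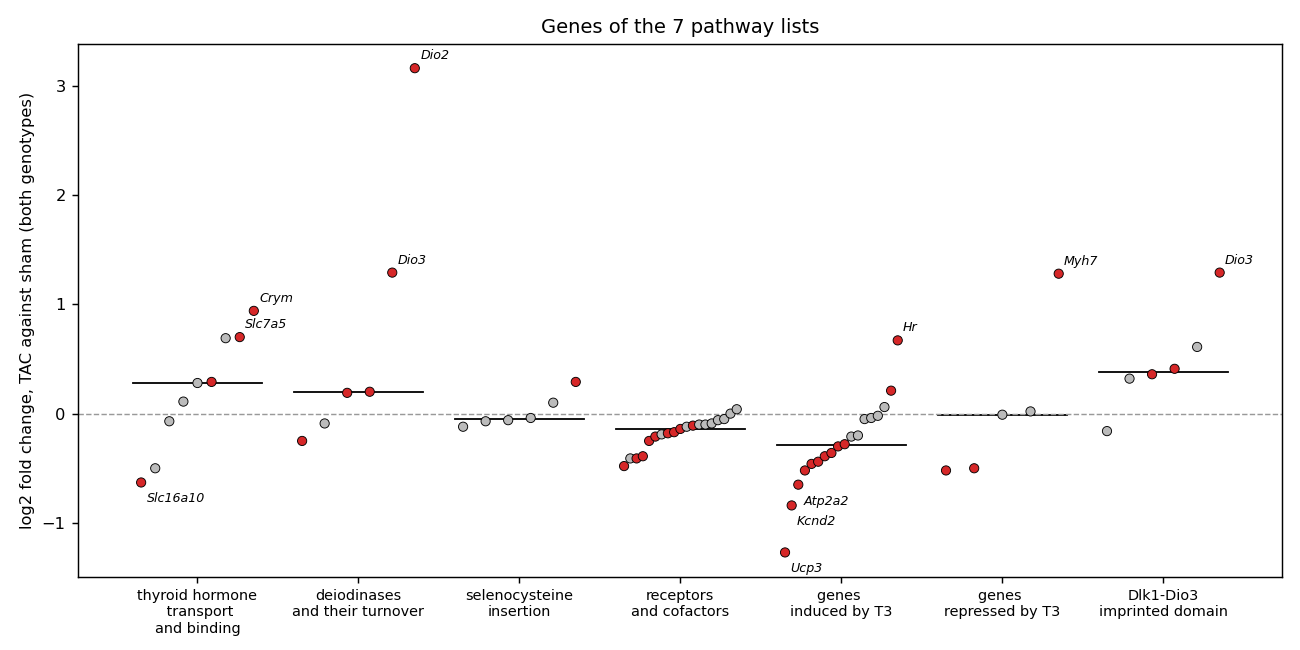
Averaged TAC effect (log2 fold change) of each tested gene of the 7 lists, with red for an adjusted p under 0.05, grey for values that did not pass and a black line at each list's median. The red genes farthest from 0 are named, Dio3 with the limits given in the text, and the receptor and T3-induced lists had medians of -0.14 and -0.29.

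Markers of other cell types moved with these genes. In bulk tissue, fewer cells of a type and less RNA per cell cannot be told apart. The 8 markers of activated fibroblasts (Postn, Cilp, Comp, Fmod, Thbs4, Meox1, Ltbp2 and Cthrc1) all rose in the averaged TAC effect, with a summed level of 36.1 to 63.9 CPM in Ctrl sham, 44.3 to 51.9 in KO sham, 224 to 459 in Ctrl TAC and 687 to 855 in KO TAC. That order of groups, without overlap between KO TAC and Ctrl TAC, was the same as for Dio2. The list was chosen with earlier results of these data known, so the match is a description. General fibroblast markers (7 of 8 rose) summed to 607 to 723, 634 to 675, 1039 to 1393 and 1452 to 1650 CPM in the same order of groups, likewise without overlap between KO TAC and Ctrl TAC. Cardiomyocyte markers (6 of 8 fell, 1 rose) summed to 48894 to 56208, 49165 to 54614, 41222 to 45078 and 35791 to 36819 CPM. Macrophage markers (6 of 6 rose) had medians of 182, 169, 250 and 275 CPM. Beside these counts, 21.3% of all genes tested rose and 20.2% fell in the averaged TAC effect. Without the library labelled KO TAC 4, the KO TAC sums were 722 to 855 CPM for activated fibroblasts, 1452 to 1650 CPM for fibroblasts and 35791 to 36636 CPM for cardiomyocytes, and the macrophage median was 276 CPM.

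Each member was also set against these sums. For each 1000 CPM of summed activated fibroblast markers there were 18.5 ± 2.70 CPM of Dio2 in Ctrl sham, 18.9 ± 5.49 in KO sham, 15 ± 2.98 in Ctrl TAC and 19.4 ± 6.66 in KO TAC (SD, n = 4), with ranges that overlapped in all groups. Dio3, with its few counts, was lower after TAC on that scale, at 1.85 ± 1.91, 2.57 ± 1.83, 0.505 ± 0.254 and 0.499 ± 0.155 CPM. Its Ctrl ranges overlapped, and KO TAC (0.305 to 0.659) lay just below KO sham (0.685 to 5.08). For each 1000 CPM of general fibroblast markers there were 1.43 ± 0.357, 1.40 ± 0.424, 3.97 ± 1.2 and 9.74 ± 5.0 CPM of Dio2, and KO TAC (6.16 to 17.1) lay above Ctrl TAC (2.62 to 5.48). For each 1000 CPM of cardiomyocyte markers Thra was at 1.06 ± 0.222, 1.02 ± 0.118, 1.08 ± 0.0738 and 1.23 ± 0.0828 CPM and Thrb at 0.345 ± 0.0258, 0.351 ± 0.0258, 0.293 ± 0.0486 and 0.354 ± 0.0238 CPM. The sham and TAC ranges of both receptors overlapped on that scale. Slc16a10 was at 0.410 ± 0.0353, 0.433 ± 0.0367, 0.319 ± 0.0385 and 0.381 ± 0.0475 CPM, and its Ctrl TAC range (0.263 to 0.346) stayed below that of Ctrl sham (0.365 to 0.450), whereas KO TAC (0.314 to 0.417) and KO sham (0.384 to 0.472) overlapped. Without the library labelled KO TAC 4, the KO TAC ratios (n = 3) were 20.2 ± 7.93 and 10.4 ± 5.91 for Dio2 against activated and general fibroblast markers, and 1.24 ± 0.0953 for Thra, 0.352 ± 0.0287 for Thrb and 0.369 ± 0.0501 for Slc16a10 against cardiomyocyte markers. These ratios were chosen after the values were seen and carry no test. The part of cell composition in the changes of the 5 genes was not tested. Myh6 was the most abundant cardiomyocyte marker, with group means of 24607, 23722, 20046 and 15336 CPM in the group order used above. Myh6 and Ryr2 are also on the T3-induced list, and Pln is on the T3-repressed list. The part of these 3 genes in the cardiomyocyte ratios was not tested.

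**Figure D5:**
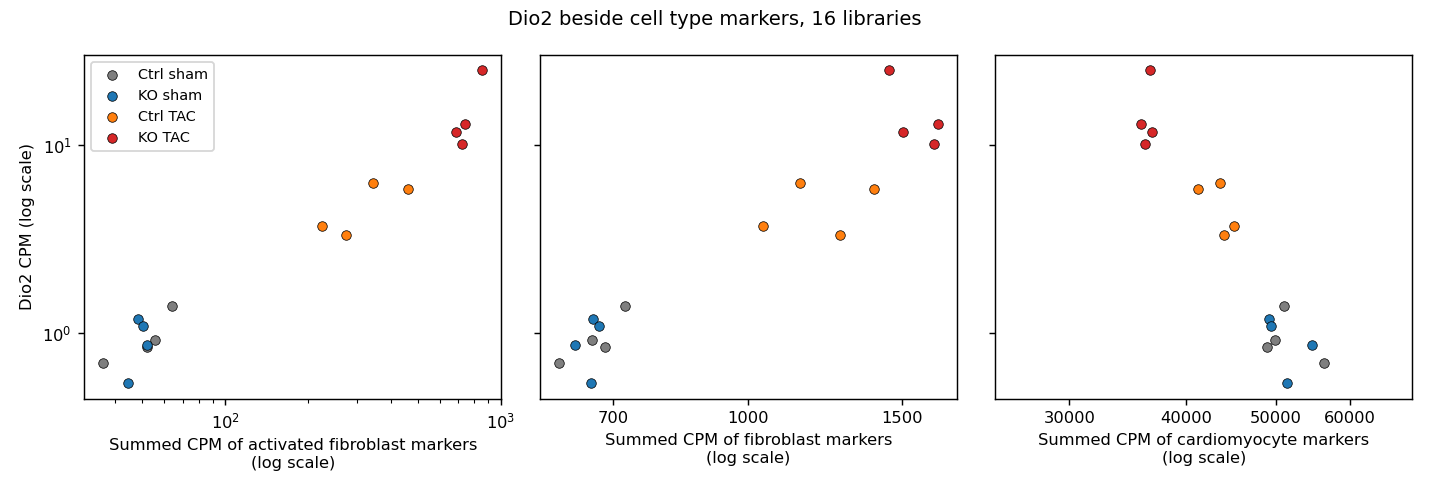
Dio2 level against the summed level of 3 marker lists in each of the 16 libraries (points coloured by group, both axes in CPM on log scales). Dio2 and activated fibroblast markers were both lowest in the sham libraries (36.1 to 63.9 CPM of markers) and highest in KO TAC (687 to 855 CPM), and cardiomyocyte markers ran the other way.

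The genes most like each member were ranked by Pearson's r of log2 CPM over the 16 libraries, which share the group differences, so r is a description. For Dio2 these were Msn (r = 0.988), Dkk3 (0.985), Lox (0.985), Wdr1 (0.984) and Rtn4 (0.982). Lox encodes the collagen crosslinking enzyme lysyl oxidase and Dkk3 a secreted protein of the Dickkopf family, and from Ctrl sham and KO sham to Ctrl TAC and then KO TAC the mean level of Lox was 3.04, 2.90, 8.96 and 18.2 CPM and that of Dkk3 was 2.21, 1.89, 7.12 and 14.6 CPM. After the group means were taken off, the genes nearest to Dio2 were Ulbp1 (r = 0.916), Mcm5 (0.908), Mcm6 (0.907), Wdr1 (0.874) and Mki67 (0.862). Mcm5 and Mcm6 encode parts of the replicative helicase and Mki67 the proliferation marker Ki-67. Slc16a10 was most like Akap8 (0.964), Emilin2 (0.951), Nedd4l (0.950), Fam174b (0.948) and Mapk14 (0.938), and Thrb most like Mapk1ip1 (0.927), Apex2, Pcbp2, Emilin2 and Ercc2 (0.916 each). The nearest genes to Thra and Dio3 were less close, with Pcif1 at 0.860 and Lpin2 at 0.874 leading their lists. For Thra they went on with Sh3glb2, Stk35, Phf24 and Kcnk3 (0.843 to 0.828), and for Dio3 with Pdlim7, Ifrd1, Prkci and Cd302 (0.856 to 0.838).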

How the data were processed

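Per the labels, poly(A)-selected RNA from heart apex was sequenced as paired 150-base reads. The authors deposited raw, unnormalized counts of reads by Ensembl gene, in 1 table. The submitters' processing notes name cutadapt 2.3, FastQC, HISAT2 2.1.0, edgeR 3.26.1 and GRCm38, and the counting program, annotation and strand setting are not given in the sources used here. Gene names, positions and exon lengths came from GENCODE M21 (GRCm38), which held 99.4% of the identifiers, and promoters from RefSeq (GRCm38.p6), which had 4 of the 5 members.

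Low counts were removed with filterByExpr, libraries scaled by TMM, and 1 robust quasi-likelihood model with a mean per group fitted to 16 libraries in edgeR 4.0.16 (R 4.3.3), with adjusted p over all 18275 genes tested. SE is the absolute log2 fold change over the square root of F, and 95% intervals are 1.96 SE. CPM are the counts over the TMM-scaled total. The ratio of receptors was tested by exact permutation (scipy 1.17.1). On counts simulated from these libraries, with 18275 genes, the averaged TAC test recovered 92.5% of genes changed 1.5-fold and 100% of those changed 2-fold or 4-fold. Changes were placed only in genes with higher counts, and the spread between animals was assumed rather than taken from the data. These rates therefore do not describe Dio3, or changes below 1.5-fold such as those of Thra and Thrb. Replicates were numbered in accession order and pair nothing, and nothing in the labels says how animals relate, so p-values measure the spread between these animals. Alternatives were RLE scaling, DESeq2 1.42.0, other count filters, terms for the animal-number series, and leaving out libraries.

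The members, lists and tests were chosen with earlier results of these data known. Named genes were the 5 members, up to 3 called rises and 3 called falls per pathway list in the averaged TAC effect, the 5 genes most like each member (average log2 CPM of 2 or more, no Gm or Rik names), and overlapping genes. Usp20, Dio1, Ncor1, Dio3os, Myh6, Nrxn3 and Cep128 were named after their values were seen. The marker lists not described in the report are given at the end.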

Additional observations from a re-analysis of the deposited data

Results flagged for a closer look

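Of 24 groups of 4 libraries (5 genes and the receptor ratio in 4 groups), 5 held a library whose gap to its nearest neighbour exceeded Dixon's 95% critical value as a share of the group's range. Chance gives about 1 in 20 such groups. The value of Thra in Ctrl sham 2 was 67.0 CPM, against 47.9, 49.6 and 51.0 in the other Ctrl sham libraries. Thrb in Ctrl TAC 1 was 9.80 CPM, against 13.4, 13.8 and 13.9. Slc16a10 in Ctrl sham 4 was 22.4 CPM, against 20.5, 20.6 and 20.7, a small gap in a tight group. The log2 ratio of Thrb to Thra was -2.06 in Ctrl sham 2, against -1.48, -1.43 and -1.41, and -2.01 in KO TAC 3, against -1.74, -1.72 and -1.69. Dio2 in KO TAC 3, although the highest value of all, did not pass this criterion.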

How the results depend on the processing

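No paired analysis was possible because replicate numbers follow accession order and pair no animals. The calls of Thrb and Slc16a10 in the averaged TAC effect held under every alternative run, at -0.43 to -0.62 and -0.59 to -0.78. The Dio2 effect was 2.98 to 3.39 over the same runs and passed in each. Dio2 was chosen by values of the same libraries, so this is not independent support for its rise. With a term for animal numbers starting with 25, Thra was at -0.23 (edgeR adjusted p = 0.0850) and was no longer called. Dio3, from which no call is read, was at 0.95 (adjusted p = 0.198) with that term. With a term for numbers starting with 33, Dio3 was at 1.34 (adjusted p = 0.0825). Those numbers are held by TAC libraries alone and by sham libraries alone, so no TAC effect can be had within them. Leaving out 1 library in turn gave 3 to 5 members with an adjusted p under 0.05. That count takes in Dio2, chosen by its values, and, where it passed, Dio3, from which no call is read. The same fits gave 0.97 to 1.62 for Dio3 and -0.24 to -0.15 for Thra, and the receptor ratio was -0.35 to -0.21. Dio3 had too few counts for the filter of at least 10 counts in every library. Between genotypes in sham, DESeq2 called 3 genes, the fit of only the 8 sham libraries called 2, the fit with both Ctrl TAC 2 and KO TAC 4 removed called 1, and leaving out 1 library called 0 to 2, against 0 in edgeR. None of those differences was called for a member, and their signs turned: with the 33 term Thra was at 0.03 and Thrb at 0.00, and leaving out 1 library gave -0.19 to 0.19 for Dio2, 0.00 to 1.21 for Dio3, -0.12 to 0.07 for Thra and -0.07 to 0.07 for Thrb. The cause of these shifts was not tested. Depth limits Dio3, at 33 counts or fewer.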

Other observations

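Within 500 kb of Dio2, 18 other genes are annotated and 3 passed the low-count filter. Gm26512, a noncoding RNA that starts inside the Dio2 gene on the opposite strand, shares 100 exon bases with it (1.7% of the Dio2 exon bases). It was at 2.76 ± 0.74 in the averaged TAC effect (edgeR adjusted p = 0.00588). Its counts per library were 0 to 2 in Ctrl sham, 0 to 8 in KO sham, 0 to 17 in Ctrl TAC and 9 to 17 in KO TAC. Gm26512 thus passed the low-count filter through the TAC groups, and no call is read from its value. Without known strand its reads in the shared bases cannot be told from those of Dio2. Cep128 fell by 0.96 on the log2 scale (SE 0.09, adjusted p = 2.14e-07), with means of 10.9, 8.10, 4.82 and 4.82 CPM from Ctrl sham and KO sham to Ctrl TAC and then KO TAC. Nrxn3 was at 0.86 ± 0.37 (adjusted p = 0.0715). Once group means were taken off, Thra and Nr1d1 had r = 0.68 over the 16 libraries, whereas Thra and Thrb had r = -0.23. These are descriptions over libraries that share their preparation.

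Of the other marker lists, endothelial (1 of 6 rose) and mural (2 of 7 rose, 1 fell) sums had medians of 655 to 682 and 927 to 1093 CPM over the groups. Lymphocyte markers (2 of 4 tested rose) had medians of 1.00 to 1.96 CPM, mesothelial markers (0 of 3 called) 4.37 to 7.82 CPM, skeletal muscle markers (1 of 3 rose) 0.480 to 1.09 CPM and glial markers (2 of 3 fell) 2.79 to 7.41 CPM. White adipocyte markers, of which 0 were tested, had medians of 0.265 to 0.317 CPM, and of the brown adipocyte list 1 gene, Cidea, was tested and rose. The single thyroid gland marker tested fell by 0.43 on the log2 scale. These counts stand beside 21.3% of all genes tested that rose and 20.2% that fell in the averaged TAC effect.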
